A study of Mus musculus with 8 samples.

Results

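Imprinted genes are transcribed mainly from the allele of 1 parent. Their levels were measured in mouse embryonic stem cells (mESCs) whose own Wdr5 mRNA was targeted by an shRNA and in which WDR5 was supplied by a transgene. The 41 genes described here were chosen by name, as classical imprinted genes of the mouse together with their neighbours in the same imprinted domain, and a probe set was taken for a gene where that gene was the only symbol annotated to it. By this rule 36 of the 41 genes were measured, by 96 of the 34945 probe sets with 1 symbol, which together stand for 18193 genes. The 36 genes lie in 18 imprinted domains, with 19 assigned to expression from the paternal allele, 16 to the maternal allele, and Gnas, which gives rise to transcripts of either kind. These assignments were made by gene name and were not checked in these cells. H19, Rtl1, Dio3, Slc22a3 and Zrsr1 have no probe set of their own under this rule and were not analysed here.

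WDR5 is a WD-repeat adaptor of the MLL complexes, which methylate lysine 4 of histone H3 at active promoters. All 8 Affymetrix arrays came from V6.5 mESCs that carried the shRNA and a doxycycline-inducible human WDR5 transgene, either F266A, a substitution in the RNA-binding cleft of the protein, or the wild-type sequence (WT). Each line was grown for several days with doxycycline at 2 µg per mL (+dox) or without it (-dox), which gave F266A -dox, F266A +dox, WT -dox and WT +dox cells, with 2 arrays per group described as biological duplicates. No group lacked the shRNA, and a single line of each kind was described, so the F266A substitution and other differences between the lines cannot be told apart.

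At an imprinted domain, a differentially methylated region inherited from the egg or the sperm acts as a control element, often through a long noncoding RNA that keeps neighbouring protein-coding genes silent on the same chromosome. The methylation of this region must be kept through cell division, and mESCs in culture are known for losing or gaining it, so levels of imprinted genes commonly vary between ESC lines. Many of these genes govern fetal and placental growth, with paternally expressed genes such as Igf2 promoting growth and maternally expressed genes such as Cdkn1c and Grb10 limiting it. The arrays measure the RNA of both alleles together, so neither allele-specific expression nor methylation was measured.

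Among the 36 genes, levels were mostly higher in F266A than in WT cells. With doxycycline, 17 of the 36 passed the test between F266A +dox and WT +dox cells, 15 of them higher and 2 lower in F266A, against 13.2% of all genes called in that comparison and 7.76% called higher. Without doxycycline, 15 of the 36 passed between F266A -dox and WT -dox cells, 14 higher and 1 lower, against 12.2% of all genes called and 7.1% called higher. Igf2, which encodes a fetal growth factor, had the largest change of the 36 in both comparisons, at 3.97-fold with doxycycline and 4.95-fold without it. Withdrawal of doxycycline gave 15 calls among the 36 in the WT line (11 higher, 4 lower in WT -dox, background 15% called and 7.78% higher) and 10 in the F266A line (9 higher, 1 lower in F266A -dox, background 6.89% called and 3.28% higher). The test was limma on log2 signals of single probe sets, with Benjamini-Hochberg adjustment over all 34945 probe sets and calls at an adjusted p under 0.05, and each gene is represented by its brightest probe set on average. Over all 96 imprinted probe sets, 35 were called between F266A +dox and WT +dox (background 11.4%), 25 on WT withdrawal (12.7%), 11 on F266A withdrawal (5.72%) and 25 between F266A -dox and WT -dox (10.1%).

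The 4 promoters below are shown because they belong to imprinted genes that differed between the lines and because each holds TGCCGC or its reverse complement GCGGCA. This hexamer is bound by ZFP57, a zinc finger protein that protects imprinted methylation in mESCs, when the CG within it is methylated. The sequences are RefSeq windows of 300 bases on GRCm38.p6, from 250 bases before to 50 bases after a transcript start, with each hexamer in capitals. They are Mest (chr6:30737800-30738099, + strand, 2 hexamers, 17 CG dinucleotides), Zdbf2 (chr1:63200108-63200407, + strand, 3 hexamers, 15 CG), Meg3 (chr12:109540746-109541045, + strand, 1 hexamer, 13 CG) and Plagl1 (chr10:13090582-13090881, + strand, 1 hexamer, 26 CG). Where a gene had several windows, one with the most hexamers was taken, and another window of each of Mest, Zdbf2 and Meg3 held none.
Mest promoter: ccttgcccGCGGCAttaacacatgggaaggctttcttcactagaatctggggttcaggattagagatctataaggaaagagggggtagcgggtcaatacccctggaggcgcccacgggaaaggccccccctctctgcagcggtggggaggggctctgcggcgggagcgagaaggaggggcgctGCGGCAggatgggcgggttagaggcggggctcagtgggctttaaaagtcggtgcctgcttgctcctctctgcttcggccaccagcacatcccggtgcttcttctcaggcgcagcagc
Zdbf2 promoter: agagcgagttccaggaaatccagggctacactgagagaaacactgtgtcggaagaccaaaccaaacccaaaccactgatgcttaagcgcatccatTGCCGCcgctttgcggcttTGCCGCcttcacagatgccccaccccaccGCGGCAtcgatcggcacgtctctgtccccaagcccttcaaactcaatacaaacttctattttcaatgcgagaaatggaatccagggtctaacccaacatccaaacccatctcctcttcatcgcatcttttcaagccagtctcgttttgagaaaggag
Meg3 promoter: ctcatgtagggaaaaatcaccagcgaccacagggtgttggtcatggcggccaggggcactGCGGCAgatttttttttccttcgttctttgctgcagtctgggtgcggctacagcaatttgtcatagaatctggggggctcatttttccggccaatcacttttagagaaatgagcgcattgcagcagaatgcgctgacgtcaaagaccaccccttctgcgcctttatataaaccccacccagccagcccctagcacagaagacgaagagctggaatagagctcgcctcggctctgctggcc
Plagl1 promoter: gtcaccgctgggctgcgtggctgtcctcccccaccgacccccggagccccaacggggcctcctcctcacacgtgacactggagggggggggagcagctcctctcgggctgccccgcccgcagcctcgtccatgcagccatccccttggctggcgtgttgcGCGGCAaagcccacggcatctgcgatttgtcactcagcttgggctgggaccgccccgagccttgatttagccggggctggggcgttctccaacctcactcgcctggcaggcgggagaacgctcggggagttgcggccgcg
Windows were available for 34 of the 41 genes, 51 windows in all, and 13 of these windows (25.5%), from 12 genes, held the hexamer on either strand, against 11.6% of all 32851 windows. Imprinted windows were also richer in CG, with a median of 14 CG dinucleotides against 7 over all windows. Among windows with at least 8 CG, 12 of 37 imprinted windows (32.4%) and 21% of all 15982 held the hexamer. Windows of 1 gene can overlap, so they are not separate units. Those of Mest at 30737800-30738099 and 30737803-30738102 are nearly the same and were both counted. The other 8 genes with a hexamer were Nnat, Copg2, Nap1l5, Zim1, Snrpn, Igf2, Grb10 and Commd1. A match of letters is a description of the window and does not show a bound site, and no promoter of Peg3, one of the genes that differed most, held these letters.

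Hosts of microRNAs are among the genes that differed, and 4 of their mature microRNAs are shown as RefSeq gives them, 5′ to 3′, with the seed (bases 2 to 8) in capitals. miR-335-5p lies within Mest (chr6:30741314-30741336), miR-370-3p within Rian (chr12:109618305-109618326), and miR-453 (chr12:109735669-109735692) and miR-496a-5p (chr12:109739132-109739152) within Mirg, all on the + strand of GRCm38.p6.
miR-335-5p: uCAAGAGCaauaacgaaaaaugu
miR-370-3p: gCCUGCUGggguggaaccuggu
miR-453: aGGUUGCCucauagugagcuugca
miR-496a-5p: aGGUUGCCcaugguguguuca
miR-453 and miR-496a-5p share their whole seed. Mest holds 1 annotated hairpin, Meg3 1, Rian 3 and Mirg 10, with 30 mature microRNAs in all. The arrays measured the host RNAs described next and not the microRNAs.

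**Figure D1:**
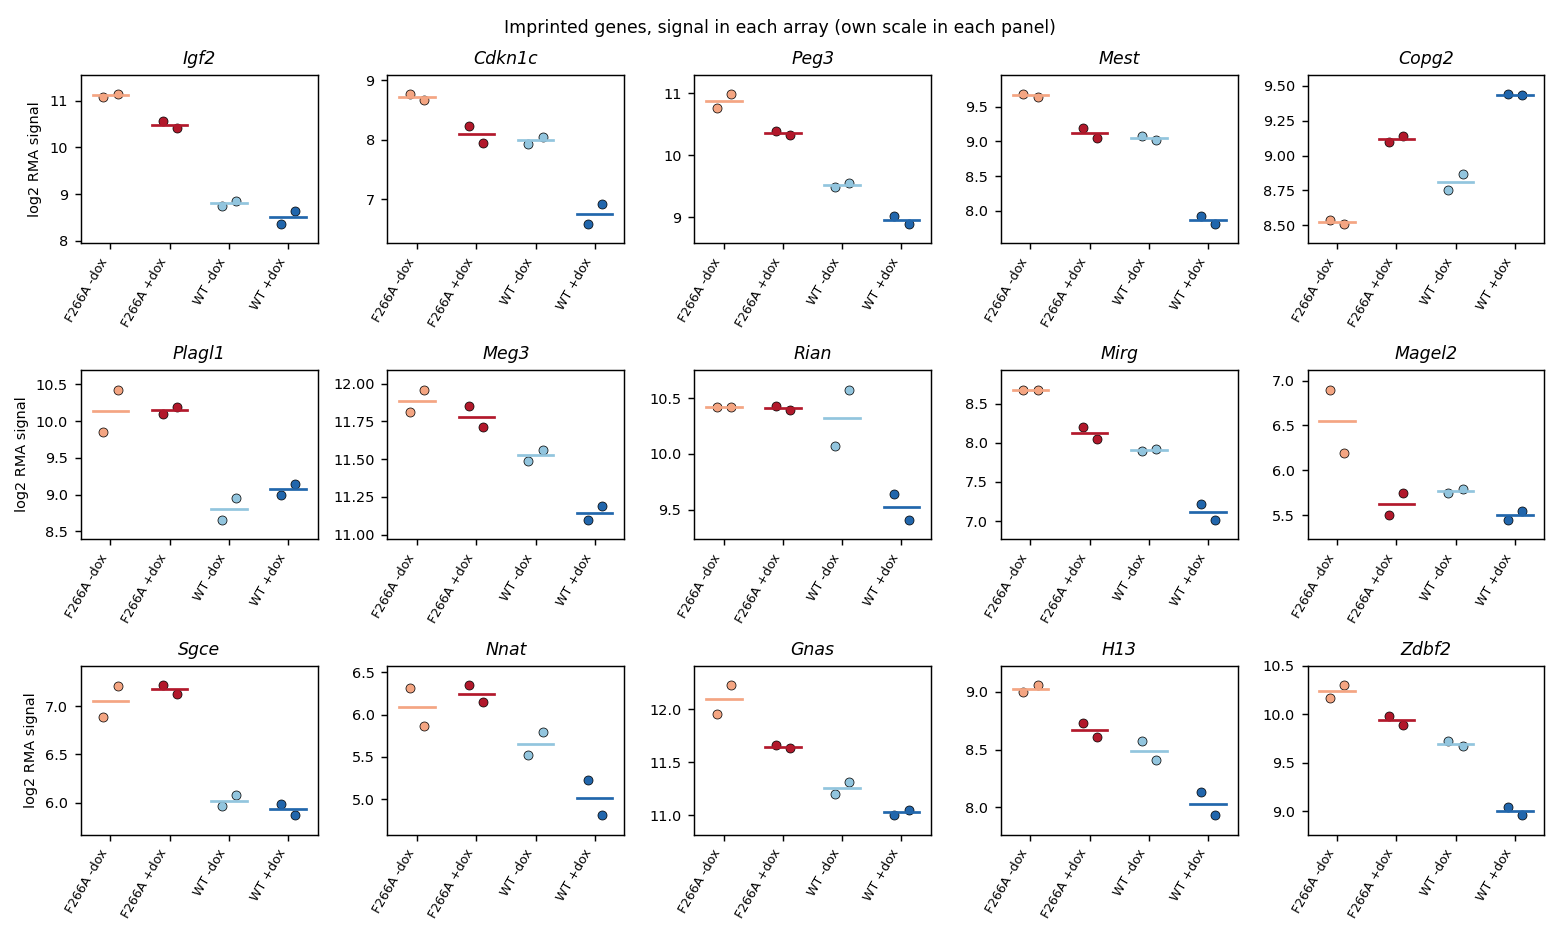
Log2 RMA signal (vertical axis, own scale in each panel) of 15 imprinted genes in each array, by group from F266A -dox to WT +dox. Points are single arrays and lines are group means of 2 arrays. Igf2 lies between 10.41 and 11.14 in the 4 F266A arrays, above the 8.36 to 8.85 of the 4 WT arrays, while Copg2 is at its highest in WT +dox cells.

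Igf2 (probe set 1448152_at) is the paternally expressed growth factor of the H19-Igf2 domain. Its log2 signal was 11.08 and 11.14 in F266A -dox cells, 10.56 and 10.41 in F266A +dox cells, 8.75 and 8.85 in WT -dox cells and 8.36 and 8.64 in WT +dox cells. All 4 F266A arrays were above all 4 WT arrays. The difference between F266A +dox and WT +dox was 1.99 ± 0.11 (SE, log2, n = 2 each, adjusted p = 1.32e-05), and that between F266A -dox and WT -dox was 2.31 ± 0.11 (adjusted p = 1.23e-05). Withdrawal gave a smaller difference of 0.62 ± 0.11 in the F266A line (adjusted p = 0.0131) and of 0.30 ± 0.11 in the WT line, which did not pass (adjusted p = 0.112). The F266A withdrawal call was lost without F266A +dox replicate 1 (adjusted p = 0.056), without F266A +dox replicate 2 (0.0852) and without F266A -dox replicate 2 (0.074). The other Igf2 probe set stayed between 3.60 and 4.15 in all arrays, under the study's expression minimum of 50 on the linear scale, which is 5.64 in log2.

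In the Kcnq1ot1 domain, the paternal noncoding RNA Kcnq1ot1 silences maternally expressed neighbours in cis. Cdkn1c (1417649_at), which encodes the cyclin-dependent kinase inhibitor p57 and is expressed from the maternal allele, had signals of 8.77 and 8.67 in F266A -dox cells, 8.23 and 7.95 in F266A +dox cells, 7.93 and 8.05 in WT -dox cells and 6.58 and 6.92 in WT +dox cells. WT +dox cells were thus the low group, with WT -dox and F266A +dox cells overlapping. Cdkn1c was higher in each of the 4 pairwise comparisons. It differed by 1.34 ± 0.13 between F266A +dox and WT +dox (2.52-fold, adjusted p = 0.000228), by 1.24 ± 0.13 on WT withdrawal (adjusted p = 0.00045), by 0.63 ± 0.13 on F266A withdrawal (adjusted p = 0.025) and by 0.73 ± 0.13 between F266A -dox and WT -dox (adjusted p = 0.00728). Leaving out any 1 of the 4 F266A arrays ended the F266A withdrawal call, with adjusted p of 0.056 and 0.137 without F266A +dox replicates 1 and 2 and of 0.0933 and 0.0851 without F266A -dox replicates 1 and 2, and the last call was lost without WT -dox replicate 1 (0.0582).

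The neighbours of Cdkn1c gave few calls. Phlda2, a pleckstrin homology protein that limits placental growth, lay between 10.48 and 11.06 over the arrays and was higher only on F266A withdrawal among the 4 comparisons (0.44 ± 0.09, adjusted p = 0.0246), a call lost without F266A +dox replicate 1 (0.056) or 2 (0.132) or F266A -dox replicate 1 (0.0881) or 2 (0.0759). Cd81, a tetraspanin, lay between 11.82 and 12.40 and was lower on WT withdrawal (-0.47 ± 0.09, adjusted p = 0.00656, and 0.0581 without WT -dox replicate 1). Kcnq1ot1 itself had 6 probe sets with no call in any comparison and differences between -0.28 and 0.36. Slc22a18, a membrane transporter, Nap1l4, a histone chaperone, and Tssc4 gave no call either, with their largest differences at -0.44, 0.18 and 0.25.

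Peg3 (1433924_at), a paternally expressed zinc finger protein, was higher in each of the 4 comparisons. Signals were 10.77 and 10.99 in F266A -dox cells, 10.40 and 10.32 in F266A +dox cells, 9.49 and 9.55 in WT -dox cells and 9.02 and 8.89 in WT +dox cells. The 4 groups did not overlap. The lines differed by 1.41 ± 0.10 with doxycycline (2.65-fold, adjusted p = 3.34e-05) and by 1.36 ± 0.10 without it (2.57-fold, adjusted p = 6.72e-05), while withdrawal gave 0.56 ± 0.10 in the WT line (adjusted p = 0.00543) and 0.52 ± 0.10 in the F266A line (adjusted p = 0.0175). Of its 5 probe sets, 3 were higher in F266A cells with and without doxycycline and 2 stayed at or under 3.32 in all arrays. The withdrawal calls rested on the brightest probe set, since the other 4 gave none, and averaging all 5 ended both (0.18 in each line, adjusted p = 0.239 in WT and 0.277 in F266A). That of the F266A line was also lost without F266A +dox replicate 1 (adjusted p = 0.0833), F266A +dox replicate 2 (0.0958) or F266A -dox replicate 2 (0.0966). Usp29, a deubiquitinase that shares the promoter region of Peg3, and Zim1, a maternally expressed zinc finger gene, were under the minimum in all arrays, with signals up to 4.12 and 4.97.

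Mest and Copg2 lie side by side and changed in opposite directions on both withdrawals. Mest (1423294_at), the paternally expressed host of miR-335 shown above, had signals of 9.68 and 9.64 in F266A -dox cells, 9.19 and 9.05 in F266A +dox cells, 9.07 and 9.02 in WT -dox cells and 7.93 and 7.81 in WT +dox cells. F266A +dox and WT -dox cells overlapped, between the high F266A -dox and the low WT +dox cells, and Mest was higher in each of the 4 comparisons. The differences were 1.25 ± 0.09 between F266A +dox and WT +dox (2.38-fold, adjusted p = 3.81e-05), 1.18 ± 0.09 on WT withdrawal (2.26-fold, adjusted p = 7.51e-05), 0.54 ± 0.09 on F266A withdrawal (adjusted p = 0.0106, and 0.0722 without F266A +dox replicate 2) and 0.62 ± 0.09 between F266A -dox and WT -dox (adjusted p = 0.00218). Copg2 (1448761_a_at), a coatomer subunit expressed from the maternal allele in some tissues, had signals of 8.54 and 8.51 in F266A -dox cells, 9.10 and 9.14 in F266A +dox cells, 8.75 and 8.87 in WT -dox cells and 9.44 and 9.43 in WT +dox cells. Every group was apart from every other, with WT +dox cells the highest. Copg2 was lower on withdrawal in both lines, by -0.62 ± 0.08 in WT (adjusted p = 0.00137) and by -0.59 ± 0.08 in F266A (adjusted p = 0.00521), and it was the only gene of the 36 lower on both withdrawals. The Copg2 difference between F266A +dox and WT +dox, -0.31 ± 0.08, was near the threshold (adjusted p = 0.0383) and lost its call without WT +dox replicate 1 (0.151) or 2 (0.127), WT -dox replicate 1 or 2 (0.052 each) and F266A +dox replicate 1 (0.184) or 2 (0.107), with values between -0.34 and -0.29.

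Plagl1 (1426208_x_at), a paternally expressed zinc finger transcription factor that regulates other imprinted genes, differed between the lines and was called on neither withdrawal. Its signals were 9.85 and 10.43 in F266A -dox cells, 10.10 and 10.19 in F266A +dox cells, 8.66 and 8.95 in WT -dox cells and 9.00 and 9.14 in WT +dox cells. All F266A arrays were above all WT arrays. The lines differed by 1.08 ± 0.17 with doxycycline (adjusted p = 0.00312) and by 1.33 ± 0.17 without it (2.52-fold, adjusted p = 0.00113), against -0.01 on F266A and -0.27 on WT withdrawal. Of 3 Plagl1 probe sets this alone was called, and its design suffix marks probes that may also bind other transcripts, so the call rests on it alone.

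The Dlk1-Dio3 domain holds the paternally expressed Dlk1, which encodes a transmembrane ligand of the Notch family, and the maternally expressed noncoding RNAs Meg3 (also known as Gtl2), Rian, a host of small nucleolar RNAs, and Mirg, a host of microRNAs. In mouse pluripotent stem cell lines, low Meg3 and Rian are known as a mark of abnormal silencing of this domain. The domain had 19 probe sets, of which 14 were higher in F266A +dox than in WT +dox cells, 10 higher in WT -dox than in WT +dox cells, 2 higher in F266A -dox than in F266A +dox cells and 5 higher in F266A -dox than in WT -dox cells, and none was lower in any comparison. Of all probe sets, 6.39%, 6.36%, 2.62% and 5.71% were called higher in these comparisons. The 19 are not separate units, since 11 read Meg3, 4 Rian, 2 Mirg and 2 Dlk1. Meg3 gave 9 of the 14 calls and 4 of the 10.

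Meg3 (1439380_x_at) had signals of 11.81 and 11.96 in F266A -dox cells, 11.85 and 11.71 in F266A +dox cells, 11.49 and 11.56 in WT -dox cells and 11.10 and 11.19 in WT +dox cells. WT +dox cells were the lowest group, and the 2 F266A groups overlapped. Between F266A +dox and WT +dox the difference was 0.63 ± 0.09 (adjusted p = 0.00231), and 9 of the 11 Meg3 probe sets were called higher there, with differences over the 11 between 0.07 and 1.10. WT withdrawal gave 0.38 ± 0.09 (adjusted p = 0.0277), with 4 of 11 probe sets called, and the lines differed by 0.36 ± 0.09 without doxycycline (adjusted p = 0.04), with 3 of 11 called. These smaller Meg3 differences were sensitive to single arrays. The call on WT withdrawal was lost without any 1 of the 4 WT arrays (adjusted p 0.152 and 0.0726 without WT +dox replicates 1 and 2, 0.0888 and 0.156 without WT -dox replicates 1 and 2), and that between F266A -dox and WT -dox without any 1 array but F266A -dox replicate 1 (0.0504 to 0.21).

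Rian (1452899_at) had signals of 10.42 and 10.42 in F266A -dox cells, 10.43 and 10.40 in F266A +dox cells, 10.07 and 10.58 in WT -dox cells and 9.64 and 9.41 in WT +dox cells. Only WT +dox cells stood apart, since the spread of the WT -dox arrays took in both F266A groups. The difference was 0.89 ± 0.15 between F266A +dox and WT +dox (adjusted p = 0.00454) and 0.80 ± 0.15 on WT withdrawal (adjusted p = 0.00801, and 0.0644 without WT +dox replicate 2), and 3 of 4 Rian probe sets were called in each. F266A withdrawal gave 0.01 ± 0.15 and the lines without doxycycline differed by 0.10 ± 0.15, neither of which passed. Mirg (1457030_at) had signals of 8.68 and 8.68 in F266A -dox cells, 8.20 and 8.05 in F266A +dox cells, 7.90 and 7.92 in WT -dox cells and 7.22 and 7.02 in WT +dox cells. Its 4 groups did not overlap, and it was higher in each of the 4 comparisons, by 1.00 ± 0.10 between F266A +dox and WT +dox (2-fold, adjusted p = 0.000184), 0.79 ± 0.10 on WT withdrawal (adjusted p = 0.000823), 0.56 ± 0.10 on F266A withdrawal (adjusted p = 0.0118) and 0.77 ± 0.10 between F266A -dox and WT -dox (adjusted p = 0.000952). The other Mirg probe set was called between F266A +dox and WT +dox (0.62, adjusted p = 0.0192) and on WT withdrawal (0.49, adjusted p = 0.0477). It was not called on F266A withdrawal (0.25, adjusted p = 0.345) or between F266A -dox and WT -dox (0.38, adjusted p = 0.13). The Mirg call on F266A withdrawal was lost without F266A +dox replicate 2 (adjusted p = 0.0785) or F266A -dox replicate 2 (0.0582).

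Dlk1 lay between 5.01 and 6.24, near the expression minimum, and was called higher on WT withdrawal (0.46 ± 0.12, adjusted p = 0.0337), on F266A withdrawal (0.54 ± 0.12, adjusted p = 0.0311) and in F266A -dox against WT -dox cells (0.50 ± 0.12, adjusted p = 0.0267). Its difference between F266A +dox and WT +dox was 0.42 ± 0.12 and did not pass (adjusted p = 0.0518). Each Dlk1 call was lost without several of the single arrays. On WT withdrawal these were WT +dox replicate 2 (adjusted p = 0.206, with a difference of 0.31), and also WT -dox replicate 1 (0.123) or 2 (0.145) and F266A +dox replicate 1 or 2 (0.051 each). On F266A withdrawal they were WT -dox replicate 1 or 2 (0.0503 each), F266A +dox replicate 1 (0.119) or 2 (0.142) and F266A -dox replicate 2 (0.17), and between F266A -dox and WT -dox they were WT -dox replicate 1 (0.122) or 2 (0.113) and F266A -dox replicate 2 (0.174).

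**Figure D2:**
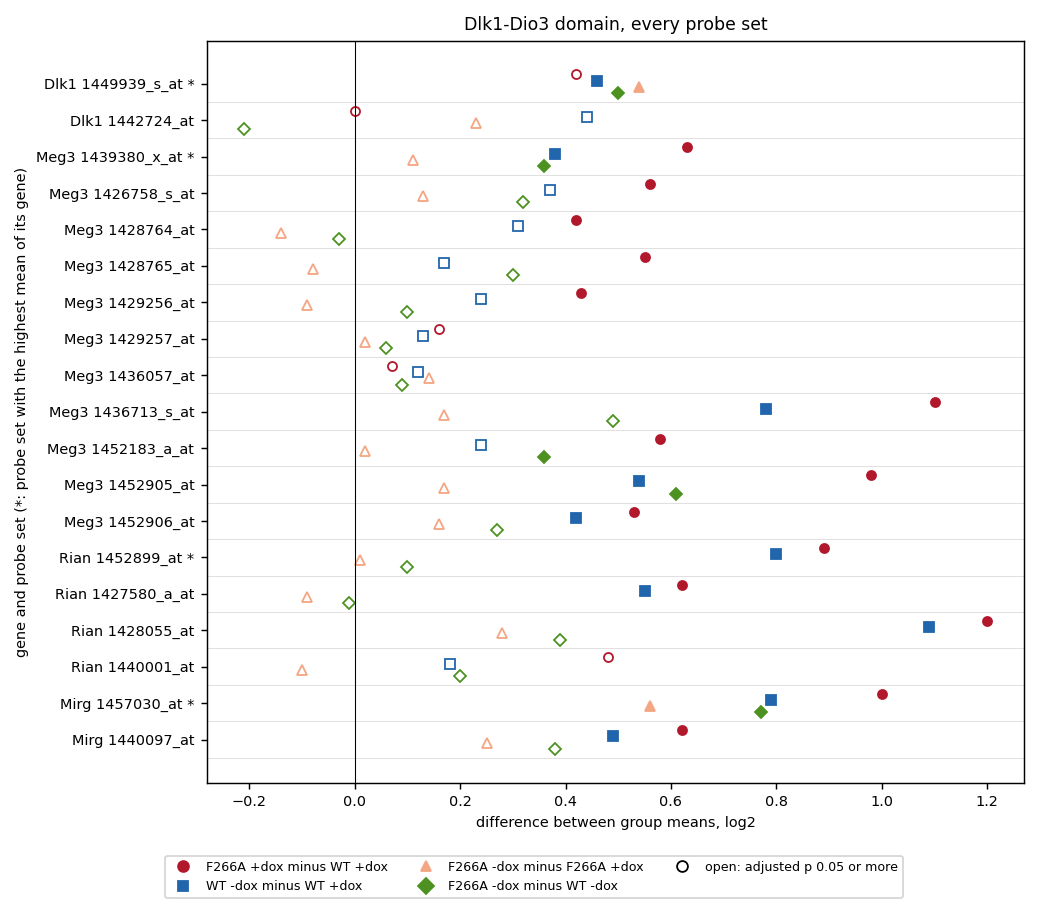
Differences between group means (horizontal axis, log2) for each of the 19 probe sets of the Dlk1-Dio3 domain, with a symbol for each of the 4 pairwise comparisons, filled where the adjusted p was under 0.05. Filled circles (F266A +dox minus WT +dox, 14 probe sets) and squares (WT -dox minus WT +dox, 10) lie to the right of 0, while most triangles (F266A -dox minus F266A +dox) are open and close to 0.

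In the Snrpn domain, which corresponds to the region of Prader-Willi syndrome in humans, Ndn and Magel2 are paternally expressed genes of the MAGE family. Ndn lay between 8.18 and 9.17 and was higher in F266A cells with doxycycline (0.58 ± 0.11, adjusted p = 0.00745) and without it (0.51 ± 0.11, adjusted p = 0.0152), and 5 and 4 of its 8 probe sets were called in these comparisons. The first difference lost its call without WT +dox replicate 1 (adjusted p = 0.0666) or F266A +dox replicate 1 (0.0587) and the second without WT -dox replicate 1 (0.112) or F266A -dox replicate 2 (0.105). On WT withdrawal 2 of the 8 Ndn probe sets were called higher (0.29, adjusted p = 0.0458, and 0.32, adjusted p = 0.0469). The brightest was not (0.29, adjusted p = 0.124). Magel2 (1417217_at) had signals of 6.90 and 6.19 in F266A -dox cells, 5.50 and 5.75 in F266A +dox cells, 5.75 and 5.79 in WT -dox cells and 5.45 and 5.55 in WT +dox cells. Only the F266A -dox arrays were clearly over the minimum, and they differed from each other more than the duplicates of any other group. Magel2 was higher in F266A -dox than in F266A +dox cells (0.92 ± 0.19, adjusted p = 0.0243) and than in WT -dox cells (0.77 ± 0.19, adjusted p = 0.0304). The F266A +dox and WT -dox arrays lay at or just around the minimum, so the sizes of these differences are uncertain. Without F266A -dox replicate 1 these differences were 0.56 and 0.42, the second no longer called (adjusted p = 0.0809). The first was also lost without F266A +dox replicate 1 (adjusted p = 0.165) or 2 (0.0725) and the second without WT -dox replicate 1 (0.13) or 2 (0.116). Snrpn, a spliceosomal protein, gave no call in its 1 probe set of 1 symbol.

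Sgce (1420688_a_at), the paternally expressed epsilon-sarcoglycan gene next to Peg10, also differed between the lines and on neither withdrawal. Signals were 6.89 and 7.21 in F266A -dox cells, 7.22 and 7.13 in F266A +dox cells, 5.96 and 6.08 in WT -dox cells and 5.99 and 5.87 in WT +dox cells. The F266A arrays were all above the WT arrays, and within each line the -dox and +dox arrays overlapped. The lines differed by 1.24 ± 0.11 with doxycycline (2.36-fold, adjusted p = 0.000148) and by 1.03 ± 0.11 without it (2.04-fold, adjusted p = 0.000538), against -0.12 and 0.09 on F266A and WT withdrawal, neither called. Peg10, a retrotransposon-derived gene needed for the placenta, was called higher in F266A +dox than in WT +dox cells (0.40 ± 0.10, adjusted p = 0.0347), but its signal did not exceed 3.92 in any array, under the minimum, so the size of this difference carries little weight, and the call was lost without WT +dox replicate 1 (0.0932) or 2 (0.164), WT -dox replicate 1 or 2 (0.0535 each) and F266A +dox replicate 1 (0.26, adjusted p = 0.231). Asb4 was also under the minimum and gave no call.

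Nnat (1423506_a_at), a paternally expressed membrane proteolipid of neurons, had signals of 6.31 and 5.87 in F266A -dox cells, 6.35 and 6.15 in F266A +dox cells, 5.52 and 5.79 in WT -dox cells and 5.22 and 4.81 in WT +dox cells. WT +dox cells were under the minimum and lowest, and the F266A groups overlapped. F266A +dox was called higher than WT +dox (fitted difference 1.24 ± 0.17, adjusted p = 0.00167), and so was WT -dox (0.64 ± 0.17, adjusted p = 0.0397). Since both WT +dox arrays and 1 of the WT -dox arrays were under the minimum, the sizes of these differences are uncertain. The WT withdrawal call was lost without WT +dox replicate 2 (adjusted p = 0.235, with a difference of 0.44), and also without WT -dox replicate 1 (0.0689) or 2 (0.221) and F266A +dox replicate 1 or 2 (0.0567 each).

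Gnas, H13 and Zdbf2 are further imprinted genes that were higher in F266A cells with and without doxycycline. Gnas (1450186_s_at), the stimulatory G protein alpha subunit, had signals of 11.96 and 12.23 in F266A -dox cells, 11.66 and 11.63 in F266A +dox cells, 11.20 and 11.31 in WT -dox cells and 11.00 and 11.05 in WT +dox cells. The groups did not overlap, and the lines differed by 0.62 ± 0.10 with doxycycline (adjusted p = 0.00432) and by 0.84 ± 0.10 without it (adjusted p = 0.000952). The other 4 Gnas probe sets were under the minimum and uncalled, and averaging all 5 ended both calls (0.09, adjusted p = 0.588, and 0.29, adjusted p = 0.0654). Gnas also passed on F266A withdrawal (0.45 ± 0.10, adjusted p = 0.0367), a call that was lost without any 1 array but F266A -dox replicate 1 (adjusted p 0.0544 to 0.181).

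H13 (1417287_at), the maternally expressed signal peptide peptidase, had signals of 9.00 and 9.06 in F266A -dox cells, 8.73 and 8.61 in F266A +dox cells, 8.57 and 8.41 in WT -dox cells and 8.13 and 7.93 in WT +dox cells. Its groups were in the same order as those of Gnas and did not overlap. H13 differed by 0.64 ± 0.10 between F266A +dox and WT +dox (adjusted p = 0.00315), by 0.46 ± 0.10 on WT withdrawal (adjusted p = 0.0165) and by 0.54 ± 0.10 between F266A -dox and WT -dox (adjusted p = 0.00871). Of its 6 probe sets, 2 were called with doxycycline, and averaging all 6, most of them under the minimum, gave 0.19, 0.17 and 0.17 with no call (adjusted p = 0.108, 0.136 and 0.15). Single arrays ended the WT withdrawal call (adjusted p = 0.113 without WT +dox replicate 2, 0.121 without WT -dox replicate 1) and the last call (0.0795 without WT -dox replicate 2, 0.0583 without F266A -dox replicate 2). Zdbf2 (1456783_at), a paternally expressed zinc finger gene with 1 of its promoter windows shown above, had signals of 10.17 and 10.30 in F266A -dox cells, 9.98 and 9.89 in F266A +dox cells, 9.72 and 9.67 in WT -dox cells and 9.04 and 8.96 in WT +dox cells. The groups did not overlap, and the differences were 0.93 ± 0.09 between F266A +dox and WT +dox (adjusted p = 0.000183), 0.69 ± 0.09 on WT withdrawal (adjusted p = 0.00111) and 0.54 ± 0.09 between F266A -dox and WT -dox (adjusted p = 0.00434), while F266A withdrawal did not pass (0.30 ± 0.09, adjusted p = 0.083).

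In the Grb10 and Igf2r domains the calls were smaller and partly downward. Grb10, a maternally expressed adaptor that restrains growth factor receptors, lay between 11.76 and 12.32 and was lower in F266A +dox than in WT +dox cells (-0.37 ± 0.09, adjusted p = 0.0246) and in WT -dox than in WT +dox cells (-0.45 ± 0.09, adjusted p = 0.00995). The first Grb10 call was lost without WT +dox replicate 1 (adjusted p = 0.0847) or 2 (0.119) or F266A +dox replicate 1 (0.117) or 2 (0.0992), and the second without WT +dox replicate 2 (0.0644) or WT -dox replicate 1 (0.087). Its neighbour Ddc, the aromatic amino acid decarboxylase, lay between 8.88 and 9.45, was higher on WT withdrawal (0.50 ± 0.08, adjusted p = 0.00439) and was lower in F266A -dox than in WT -dox cells (-0.31 ± 0.08, adjusted p = 0.0446), the only gene of the 36 called in opposite directions in its brightest probe set, though the lower call was lost without any 1 of the 8 arrays (adjusted p 0.0617 to 0.236). Igf2r, the receptor that clears IGF2, was lower on WT withdrawal in both of its probe sets (-0.45 ± 0.11, adjusted p = 0.0223, and -0.39 ± 0.08, adjusted p = 0.0138). These were lost without WT +dox replicate 2 (0.146 and 0.0827), WT -dox replicate 1 (0.0869 and 0.0835) or WT -dox replicate 2 (0.12 and 0.0732), and the dimmer probe set also without WT +dox replicate 1 (0.0515). The dimmer probe set was higher in F266A -dox than in WT -dox cells (0.35 ± 0.08, adjusted p = 0.025), which was lost without any 1 array of these 4 (0.0801 to 0.126). Airn, the noncoding RNA that silences Igf2r on the paternal chromosome, was under the minimum in all 5 of its probe sets, of which 1 was called higher in F266A -dox than in WT -dox cells (0.42, adjusted p = 0.0481), lost without any 1 array but F266A -dox replicate 1 (0.0508 to 0.262) and as small as 0.29 without F266A -dox replicate 2.

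Impact, Commd1, Nap1l5 and Inpp5f gave no call in their representing probe set. Impact, a regulator of the kinase GCN2, lay between 10.08 and 10.34, and Commd1, a protein of endosomal sorting, between 10.86 and 11.02. Nap1l5 did not exceed 4.15. Inpp5f, a phosphoinositide phosphatase, lay between 7.59 and 8.09, and 1 of its 3 probe sets, at 4.67 or less in all arrays, was called lower in F266A -dox than in F266A +dox cells (-0.50, adjusted p = 0.0154) and than in WT -dox cells (-0.44, adjusted p = 0.0147). The first was lost without F266A +dox replicate 1 (0.115) or F266A -dox replicate 1 (0.0628) and the second without WT -dox replicate 1 (0.0743) or 2 (0.0879) or F266A -dox replicate 1 (0.0717).

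**Figure D3:**
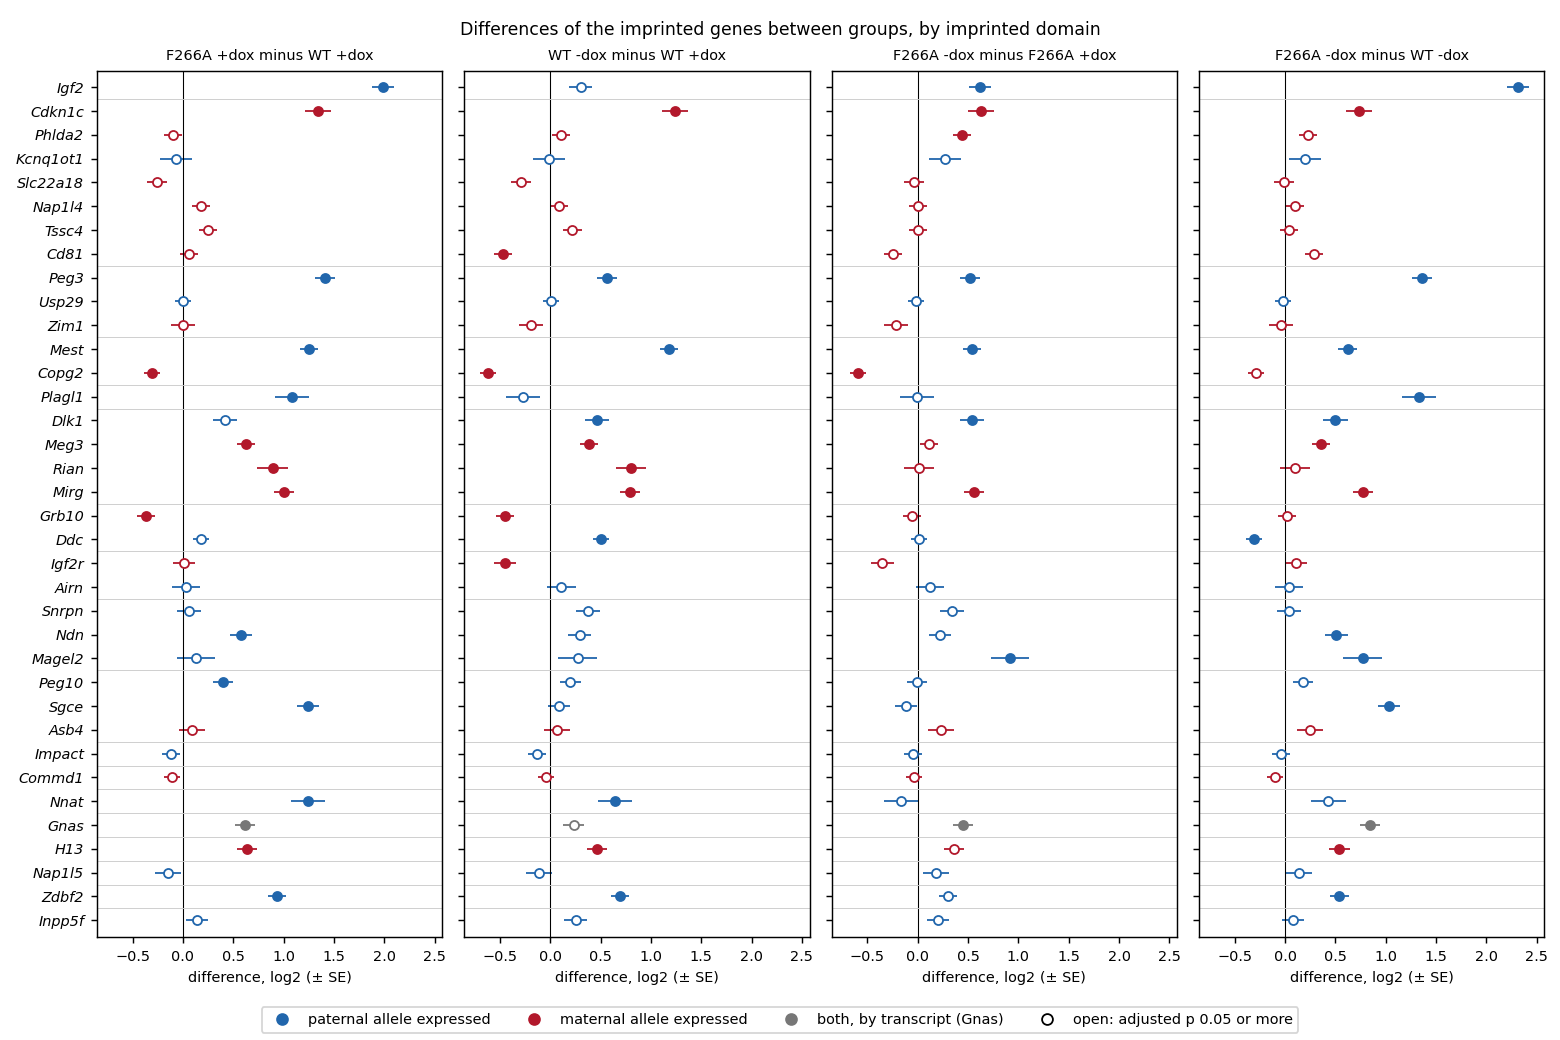
Difference between group means (horizontal axes, log2, bars are SE) for the brightest probe set of each of 36 imprinted genes, by domain from top to bottom, in 4 pairwise comparisons. Blue, red and grey mark assigned paternal, maternal and transcript-dependent expression, and filled points passed at an adjusted p under 0.05: 17, 15, 10 and 15 genes from left to right.

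Over all 36 genes, 23 were called in at least 1 of the 4 pairwise comparisons, against 25.5% of all 18193 genes, and 13 in none. In their brightest probe set, Cdkn1c, Peg3, Mest and Mirg were higher in all 4 comparisons, which was so for 1.09% of all genes. The other probe sets of Peg3 and Mirg were not called on F266A withdrawal. The 12 genes higher in F266A than in WT cells with and without doxycycline were Igf2, Cdkn1c, Peg3, Mest, Plagl1, Meg3, Mirg, Ndn, Sgce, Gnas, H13 and Zdbf2, and 4.16% of all genes had this pattern. Plagl1, Ndn and Sgce among them were called on neither withdrawal in their brightest probe set, though 2 of the 8 Ndn probe sets were called higher on WT withdrawal. In their brightest probe set, Cdkn1c, Peg3, Mest, Dlk1 and Mirg were higher on both withdrawals, a pattern whose share over all genes was not computed. The median difference over the 36 genes was 0.18 between F266A +dox and WT +dox, 0.21 on WT withdrawal, 0.11 on F266A withdrawal and 0.22 between F266A -dox and WT -dox, against medians over all genes between -0.01 and 0.02.

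Calls were found among genes of either parental origin, to be read against the 13.2%, 15%, 6.89% and 12.2% of all genes called in the 4 comparisons below and the 7.76%, 7.78%, 3.28% and 7.1% called higher. Between F266A +dox and WT +dox cells, 9 of 19 genes assigned to the paternal allele were called, all higher, and 7 of 16 assigned to the maternal allele, 5 higher and 2 lower. On WT withdrawal, 6 of 19 paternal genes were called, all higher, and 9 of 16 maternal genes, 5 higher and 4 lower. On F266A withdrawal the counts were 5 of 19, all higher, and 4 of 16, 3 higher and 1 lower, and between F266A -dox and WT -dox 10 of 19, 9 higher and 1 lower, and 4 of 16, all higher. Whether paternal and maternal genes differ was not tested.

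The differences between the lines with and without doxycycline come from separate arrays. They had the same sign for 29 of the 36 genes, against 63.8% of all genes, and their Pearson correlation across the 36 genes was 0.83 (Spearman 0.78), against 0.65 over all 18193 genes. Genes are not independent replicates, and the points share the 2 lines, so these values are a description. The 2 withdrawals, which share no array, correlated at 0.65 (Spearman 0.69) over the 36 genes and at 0.56 over all genes.

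**Figure D4:**
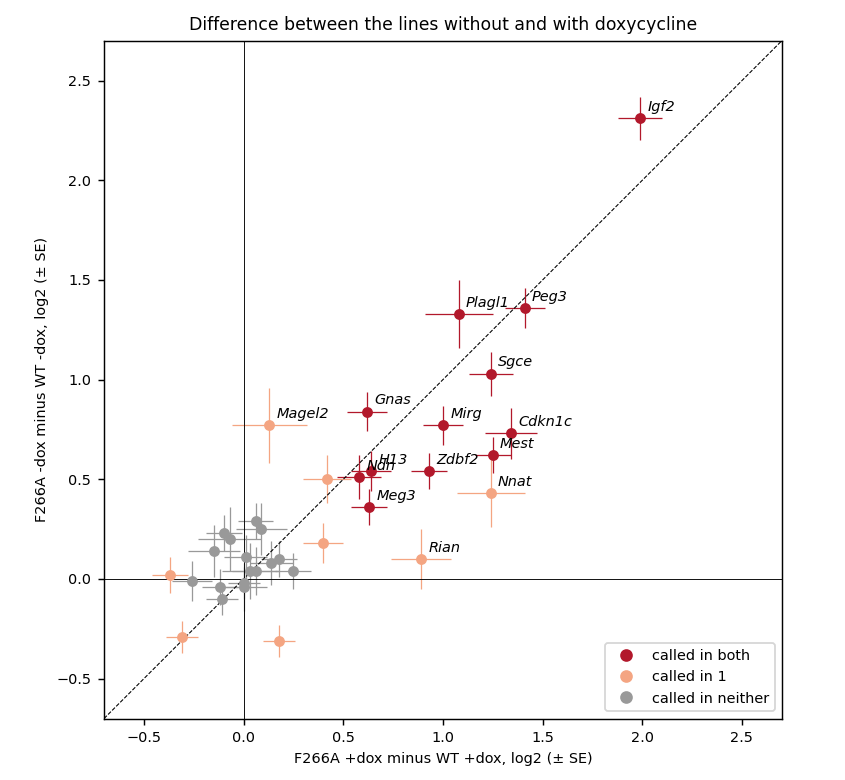
F266A -dox minus WT -dox (vertical axis) against F266A +dox minus WT +dox (horizontal axis), both log2 with SE, for 36 imprinted genes, with the dashed line where both are equal. Igf2 stands at 1.99 and 2.31, Plagl1, Peg3 and Sgce lie near the line, and Rian (0.89 and 0.10) and Nnat (1.24 and 0.43) fall below it.

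Whether withdrawal acted differently in the 2 lines was tested as an interaction. None of the 96 imprinted probe sets passed with limma (background 0.67%), although 18 had an unadjusted p under 0.05. The share of all probe sets at that unadjusted p was not computed, so these 18 cannot be set against it. Among the 36 representing probe sets Mest came nearest, at -0.64 ± 0.13 (adjusted p = 0.0648), with its withdrawal difference of 0.54 in F266A and 1.18 in WT cells. The call depended on which probe sets were tested. With those over 50 in at least 1 array, Mest (adjusted p = 0.0296) and Ddc (-0.48, adjusted p = 0.0476) passed, and with a trended and robust variance prior 6 passed, Mest, Ddc, Grb10 (0.39), Zdbf2 (-0.40), 1 probe set of Rian (-0.81) and the dim 1 of Inpp5f (-0.67). These were 2 of 58 imprinted probe sets (3.45%), against 2.71% of all probe sets with that minimum, and 6 of 96 (6.25%), against 3.24% with that prior.

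Regulators of imprints were examined beside the imprinted genes themselves. Of 25 measured, 4 were called between F266A +dox and WT +dox, all higher, and 6 on WT withdrawal, all higher. These shares were 16% and 24%, against 13.2% and 15% of all genes. Dnmt3l, the cofactor that stimulates de novo methylation and is needed for maternal imprints, averaged 10.79 in F266A -dox, 10.31 in F266A +dox, 11.23 in WT -dox and 9.62 in WT +dox cells. It was higher by 0.69 in F266A +dox than in WT +dox cells (adjusted p = 0.00127), by 1.61 on WT withdrawal (adjusted p = 1.66e-05) and by 0.47 on F266A withdrawal (adjusted p = 0.0198), lower by -0.44 in F266A -dox than in WT -dox cells (adjusted p = 0.0149), and its interaction was called (-1.13, adjusted p = 0.00741, and 0.0547 without F266A +dox replicate 1). The Dnmt3l call on F266A withdrawal was lost without F266A +dox replicate 1 (0.0831) or 2 (0.108) or F266A -dox replicate 1 (0.0775), and that between F266A -dox and WT -dox without WT -dox replicate 1 (0.0754) or 2 (0.0878) or F266A -dox replicate 2 (0.0978). The de novo methyltransferases moved likewise in the first pair of comparisons, Dnmt3b by 1.16 (adjusted p = 0.00017) and 1.56 (adjusted p = 4.81e-05), and Dnmt3a by 0.98 (adjusted p = 0.00283) and 1.28 (adjusted p = 0.000779). Between F266A -dox and WT -dox cells 6 regulators were called, all lower (24%, background 12.2%), among them the 5-methylcytosine dioxygenases Tet2 (-0.64, adjusted p = 0.00103) and Tet1 (-0.61, adjusted p = 0.00189) and the imprint-protecting Zfp57 (-0.53, adjusted p = 0.00667, and 0.0655 without WT -dox replicate 2 or 0.0517 without F266A -dox replicate 2). F266A withdrawal gave 5 calls, 3 higher and 2 lower (20%, background 6.89%), and Tet2 was the other of the 2 regulators with a called interaction (-0.63, adjusted p = 0.0448), which was lost without any 1 of the 8 arrays (0.0736 to 0.181).

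A separate list of further imprinted genes, 36 of them measured, gave 8 calls between F266A +dox and WT +dox (22.2%, 5 higher and 3 lower), 9 on WT withdrawal (25%, 5 higher and 4 lower), 5 on F266A withdrawal (13.9%, 3 higher and 2 lower) and 9 between F266A -dox and WT -dox (25%, 5 higher and 4 lower), against 13.2%, 15%, 6.89% and 12.2% of all genes and 17, 15, 10 and 15 of the 36 genes described above. Pon2, a paraoxonase, averaged 6.28 in F266A -dox, 6.09 in F266A +dox, 5.54 in WT -dox and 4.62 in WT +dox cells and was called higher in F266A +dox than in WT +dox cells (fitted difference 1.48, adjusted p = 3.97e-05), a size that is uncertain because all 4 WT arrays were under the minimum. Ampd3, an AMP deaminase, was lower in all 4 comparisons, by -1.06 between F266A +dox and WT +dox (adjusted p = 0.000123) and by -1.12 on WT withdrawal (adjusted p = 0.000125). Atp10a, a phospholipid flippase, was higher in all 4, by 1.15 on F266A withdrawal (adjusted p = 0.00117), and Cobl, an actin nucleator, lower in all 4, by -0.78 there (adjusted p = 0.0037). Averaging the Cobl probe sets ended all 4 of its calls (-0.33 to -0.28). Between F266A +dox and WT +dox, where Cobl differed by -0.39 (adjusted p = 0.0346) and Atp10a by 0.58 (adjusted p = 0.00711), single arrays ended both calls, for Cobl WT +dox replicate 2 (0.194) and F266A +dox replicate 1 (0.135) or 2 (0.136) and for Atp10a WT +dox replicate 1 (0.0614) and F266A +dox replicate 1 (0.056). On WT withdrawal the Cobl call was lost without WT +dox replicate 2 (0.0725) or WT -dox replicate 2 (0.0786). Gatm, an enzyme of creatine synthesis, was higher in F266A than in WT cells with doxycycline (0.72, adjusted p = 0.00622, and 0.0544 without WT +dox replicate 2 or 0.0536 without F266A +dox replicate 2) and without it (0.90, adjusted p = 0.00217), but 7 of the 8 arrays were under the minimum, so these sizes carry little weight. Slc38a4, an amino acid transporter, was the only gene of this list with a called interaction (0.89, adjusted p = 0.0451), which was lost without any 1 of the 8 arrays (0.0653 to 0.154).

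Other features of the arrays also moved with the groups. The 2 mouse Wdr5 probe sets were higher without doxycycline in both lines, at 10.30 to 10.39 in F266A -dox against 9.77 to 9.83 in F266A +dox cells and at 10.57 to 10.62 in WT -dox against 9.68 to 9.70 in WT +dox cells for the brighter of them, and since every group carries the shRNA and the transgene is human, they do not check the labels. The mean of 10 ESC markers was 11.82 to 11.86 in F266A -dox, 12.22 to 12.23 in F266A +dox, 12.27 to 12.30 in WT -dox and 12.43 to 12.44 in WT +dox cells, and that of 9 neural markers was 6.92 to 6.97, 6.61 to 6.65, 6.51 to 6.59 and 6.10 to 6.14 in the same order, with Neurog2 and Dcx under the minimum. The neural mean rested on few markers, chiefly the neurofilament genes Nefl and Nefm, which were called higher in all 4 comparisons (Nefl by 1.84 between F266A +dox and WT +dox). Nes was also called higher in all 4, and Tubb3 on both withdrawals. Averaging all Nes probe sets ended its calls on WT withdrawal (0.28, adjusted p = 0.087) and F266A withdrawal (0.31, adjusted p = 0.0859). The Tubb3 call on F266A withdrawal was lost without any 1 of the 8 arrays. Nefm was under the minimum in WT +dox cells, and its F266A withdrawal call was lost without F266A +dox replicate 1 (adjusted p = 0.0621) or 2 (0.0848) or F266A -dox replicate 1 (0.0612). Of the 9 neural markers, 3 were called higher between F266A +dox and WT +dox, 4 on each withdrawal and 3 between F266A -dox and WT -dox. Of all genes, 7.76%, 7.78% (WT withdrawal), 3.28% (F266A withdrawal) and 7.1% were called higher. Between F266A +dox and WT +dox, 3 of the 9 markers were lower and 4 of 9 on WT withdrawal, none of them called, and the median differences of the 9 were 0.11 and 0.03. Of 9 fibroblast markers 8 were under the minimum in all arrays, as were 5 of 10 markers of extraembryonic endoderm (among them Gata4, Sox17 and Sox7) and 3 of 8 trophoblast markers, and their list means stayed within 4.69 to 5.01, 5.18 to 5.52 and 6.14 to 6.58. Single markers moved within them. Between F266A -dox and WT -dox cells, 4 of 8 trophoblast markers were called, 3 higher, among them Krt7 (1.47, adjusted p = 0.000144) and Gata3, which was under the minimum, and 1 lower. The Krt7 interaction was also called (1.06, adjusted p = 0.0364), and was lost without any 1 array but F266A -dox replicate 1 (0.0638 to 0.139). In the same comparison, where 12.2% of all genes were called, 2 of 10 endoderm markers were called higher, with Dab2 at 1.01 (adjusted p = 0.00398). So were 2 of 9 fibroblast markers, Col1a2 (0.80, adjusted p = 0.0122) and Col3a1, which was under the minimum (0.59, adjusted p = 0.00182). The Col1a2 call was lost without WT -dox replicate 2, at 0.75. Averaging all probe sets of a gene ended both fibroblast calls (Col1a2 0.37, adjusted p = 0.0631, and Col3a1 0.19, adjusted p = 0.172). The 18S ribosomal RNA control was 9.57 to 9.60 in F266A -dox, 10.35 to 10.61 in F266A +dox, 10.78 to 11.13 in WT -dox and 10.99 to 11.42 in WT +dox cells. The part of these shifts in the imprinted genes' differences was not tested, and in bulk RNA fewer expressing cells and less RNA per cell cannot be told apart.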

How the data were processed

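Gene expression in 8 samples was measured on Affymetrix mouse expression arrays. The deposited values are log2 signals that the authors obtained by RMA in R 2.11.1, which corrects background, quantile normalizes and summarises probes, and the deposited table of 45101 probe sets was used with no further normalization. Probe sets were assigned to genes by the platform annotation, which gave 34945 with 1 symbol, 932 with several (among them that of H19, 6 of Snrpn and 1 of Igf2r with Airn, left out), 9160 with none and 64 controls. The deposited comparisons of the study were not used.

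Groups and replicate numbers came from the sample titles. All 8 arrays were fitted as 4 group means in limma 3.58.1 (R 4.3.3), per probe set and with no expression filter, and 5 contrasts were examined with two-sided tests and adjusted by Benjamini and Hochberg over the 34945 probe sets. The fit had 4 residual and 5.64 prior degrees of freedom, the median SD between duplicates was 0.101 and the median SE of a difference was 0.10, and precision is limited by the number of arrays. It was tested on simulated data. The p-values measure the spread between duplicates of 1 line each, which may be partly technical. The deposited values do not separate the alleles.

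The imprinted genes and the lists of regulators, further imprinted genes and cell type markers were chosen with earlier results of these data known. Values per array are given for the 15 genes whose brightest probe set was called with at least a 1.5-fold change in a pairwise comparison, and for related lists up to 6 of the called genes with the largest changes. SAM, which the study used, was not run. The alternatives were minima of 50 and 100, gene means, all probe sets, quantile normalization, median centring, the groups of a contrast alone, a replicate block, a trended and robust prior, array weights, a 2-fold size and leaving out each array. Replicate numbers gave no strong pairing of the samples. Correlations of deviations between arrays of the same number were 0.09 in the WT and 0.16 in the F266A line and -0.17 to -0.09 between the lines. A pairing within each line alone was not tested. Promoters and microRNAs are RefSeq sequences on GRCm38.p6.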

Additional observations from a re-analysis of the deposited data

Results flagged for a closer look

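Withdrawal of doxycycline differed between the F266A and the WT line by the interaction test for 4 genes named above, none of them among the 41 imprinted genes first chosen. They were 2 of 25 regulators (8%), 1 of 36 further imprinted genes (2.78%) and 1 of 8 trophoblast markers (12.5%), with none in the other marker lists. Over all 18193 genes the share was 0.923%. How these calls depended on single arrays is given above. The interaction was -1.13 for Dnmt3l, whose F266A withdrawal difference was 0.47 and WT withdrawal difference 1.61. It was -0.63 for Tet2, at -0.46 in F266A and 0.18 in WT cells, and 0.89 for Slc38a4, at 0.26 in F266A and -0.63 in WT cells. It was 1.06 for the trophoblast marker Krt7, at 0.04 in F266A and -1.02 in WT cells. The calls of Tet2 and Slc38a4 were lost when probe sets without a single symbol entered the fit (adjusted p = 0.0525 and 0.0502).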

How the results depend on the processing

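Of 1216 values of 62 called comparisons of imprinted genes under the alternatives, none changed direction, 1018 stayed called and 198 did not pass, 48 of these under the 2-fold size. Of 732 values of 37 called comparisons of regulators and further imprinted genes, none changed direction and 96 did not pass. Apart from the 2-fold size and single arrays, most of the 62 calls that were lost were lost with averages over all probe sets of a gene (12) and with the groups of a contrast alone (12). The number of the 96 imprinted probe sets called moved most with that size, to 12 between F266A +dox and WT +dox, 3 on WT withdrawal, 0 on F266A withdrawal and 6 between F266A -dox and WT -dox, against 35, 25, 11 and 25 without it. Over all probe sets the shares at that size were 1.22%, 0.899%, 0.252% and 1.01%. Averaging the probe sets over 50 of each gene gave 19 of 30 genes between F266A +dox and WT +dox, against 28.3% of all genes in that fit. Averaging all probe sets gave 15 of 36 genes there, 14 on WT withdrawal and 12 between F266A -dox and WT -dox. The shares of all genes in that fit were 13.5%, 15.4% and 13.5%, and the unit counted is a gene and not a probe set. Fitting the groups of a contrast alone left 6 of the 96 called on F266A withdrawal, against 3.02% of all probe sets in that fit. The interaction count of 0 became 2 with a minimum of 50, 2 with a minimum of 100, 2 and 1 with gene means over 50 and over all probe sets, and 6 with a trended and robust prior. These were 3.45%, 4.55%, 6.67%, 2.78% and 6.25% of the imprinted units, against 2.71%, 5.44%, 5.15%, 1.59% and 3.24% of all units in the same fits, and the cause was not tested. With the replicate block, which paired samples by replicate number across both lines, the counts were 33, 22, 11, 21 and 0. The shares of all probe sets called with that block were 10%, 11.3%, 4.73%, 9.02% and 0.432%. The calls of Copg2 between F266A +dox and WT +dox (adjusted p = 0.0597), of Meg3, Ddc and the Airn probe set between F266A -dox and WT -dox (0.0582, 0.0643 and 0.0578) and of the Tet2, Slc38a4 and Krt7 interactions (0.0788, 0.0635 and 0.0538) were lost with it.

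Leaving out 1 array gave 22 to 36 calls between F266A +dox and WT +dox, 12 to 23 on WT withdrawal, 2 to 10 on F266A withdrawal, 13 to 24 between F266A -dox and WT -dox and 0 to 0 for the interaction. A group then held 1 array, assumed to vary like the others. Between F266A +dox and WT +dox, counts over 1.5 times lower came without F266A +dox replicate 1. On F266A withdrawal they came without F266A +dox replicate 1 or 2 or F266A -dox replicate 2. On WT withdrawal they came without WT +dox replicate 2 or WT -dox replicate 1 or 2. Between F266A -dox and WT -dox they came without F266A -dox replicate 2 or WT -dox replicate 1 or 2. In each of these fits the share of all probe sets called fell as well. Signals under 5.64 were not shown to exceed background.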
